A study of Mus musculus with 16 samples.

Results

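The mRNAs of 10 genes of fatty acid and triglyceride synthesis were followed in mouse skeletal muscle: Srebf1, Acly, Acaca, Acacb, Fasn, Elovl6, Scd1, Scd2, Dgat1 and Dgat2. These genes were chosen by symbol, as the regulator Srebf1 and enzymes of the pathway, and make up 10 of the 55471 gene identifiers in the deposited count table. All 10 were among the 14331 genes that passed the filter on low counts. The libraries come from 16 male mice, 1 library a mouse, of which 10 are labelled Npr1+/- and 6 are labelled Npr1+/+ littermates. Npr1 encodes GCA, the receptor for atrial natriuretic peptide, and the heterozygous animals carry 1 allele of the targeted line B6.129-Npr1tm1Gar/J in every cell, on a C57BL/6J background. Every mouse, the controls included, is given as 12 weeks old and was fed a high-fat diet (HFD) with 60% of its calories from lipid for 12 weeks, so no lean or chow-fed muscle stands beside these values. The mice came from 4 cages and weighed 36.5 to 48.1 g under the Npr1+/- label and 40.5 to 54.0 g under the Npr1+/+ label. The sources used here do not name the muscle sequenced.

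In de novo lipogenesis, citrate leaves the mitochondrion and ACLY cleaves it to cytosolic acetyl-CoA. ACC1 (Acaca) and ACC2 (Acacb) carboxylate acetyl-CoA to malonyl-CoA, FASN builds palmitate from it, ELOVL6 elongates palmitate, the SCD enzymes introduce a double bond, and DGAT1 and DGAT2 join a fatty acyl group to diacylglycerol to make triglyceride. SREBP-1c, a product of Srebf1, is the insulin-responsive transcription factor of many of these genes in liver and adipose tissue. Muscle makes little fat of its own, and there ACC2 is known mainly for its malonyl-CoA, which restrains the entry of fatty acids into mitochondria.

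To place the regulator and the enzymes that varied most between mice on the genome, the 250 bases before a transcription start are shown for Srebf1, Acacb and Fasn, from RefSeq on GRCm38.p6. Promoter entries matched 6 of the 10 genes (Srebf1, Acly, Acaca, Acacb, Fasn and Elovl6). Capitals mark a CCAAT box (CCAAT, or ATTGG on the other strand) or a GC box (GGGCGG, or CCGCCC on the other strand). The Srebf1 window is chr11:60210472-60210721 on the minus strand, before the most downstream of 3 starts. The Acacb window is chr5:114165268-114165517 on the plus strand, before a start that lies inside the gene as the count table bounds it. The Fasn window is chr11:120824548-120824797 on the minus strand.
Srebf1: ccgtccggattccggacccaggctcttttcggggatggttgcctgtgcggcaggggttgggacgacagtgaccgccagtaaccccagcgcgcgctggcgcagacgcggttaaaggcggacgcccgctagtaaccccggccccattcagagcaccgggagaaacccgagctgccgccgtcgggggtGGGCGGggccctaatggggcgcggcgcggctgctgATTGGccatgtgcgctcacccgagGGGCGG
Acacb: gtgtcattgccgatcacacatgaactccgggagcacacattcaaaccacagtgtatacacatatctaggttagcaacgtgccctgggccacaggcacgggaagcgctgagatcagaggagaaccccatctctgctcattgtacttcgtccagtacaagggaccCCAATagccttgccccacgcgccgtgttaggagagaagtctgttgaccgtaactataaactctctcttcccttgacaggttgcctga
Fasn: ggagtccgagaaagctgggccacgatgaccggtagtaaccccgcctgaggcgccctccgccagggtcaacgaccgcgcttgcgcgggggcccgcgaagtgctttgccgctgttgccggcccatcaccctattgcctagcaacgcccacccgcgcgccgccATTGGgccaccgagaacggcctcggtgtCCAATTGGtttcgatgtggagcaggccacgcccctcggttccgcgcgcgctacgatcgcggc
The Fasn window held 3 CCAAT boxes, of which 2 overlap, and no GC box. Srebf1 held 1 CCAAT box and 2 GC boxes, and Acacb held 1 CCAAT box and no GC box. Of the 32851 RefSeq windows of this length, 33.8% held a CCAAT box and 32.7% a GC box. The sterol regulatory element TCACNCCAC, searched on both strands, was in 0 of the 8 windows of the 6 genes and in 1.05% of all windows, and the E-box CACGTG in 0 of the 8 and in 6.02%.

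Library totals ran from 15273472 to 59682677 counts. Npr1 was not lower under its own label: its normalised count, given as CPM (the count relative to the scaled library total), averaged 13.6 with an SD of 3.87 in the 10 Npr1+/- libraries and 12.2 with an SD of 1.05 in the 6 Npr1+/+ libraries, so each direction below is between libraries as labelled. Muscle fiber transcripts dominated all libraries, with 7 marker genes summing to 82255 to 140128 CPM. White adipocyte transcripts were present in all of them, with 8 of 8 markers above 0 in every library. In 3 libraries, Npr1+/- replicates 5, 6 and 7, long genes stood higher against short genes than elsewhere. The slope of a library's log2 CPM deviations on log2 gene length (the length slope) was 0.18, 0.24 and 0.32 in these mice and -0.19 to 0.06 in the other 13. Replicate 5 labelled Npr1+/+ held hepatocyte transcripts, with 4 markers summing to 69.8 CPM against at most 1.20 elsewhere.

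Per kilobase of transcript, Scd1, Acacb and Dgat2 were the most abundant of the 10 mRNAs and Elovl6 the least. Over 16 mice, Scd1 stood at 25.2 ± 17.2 RPKM (CPM per kilobase of the deposited gene length; SD), Acacb at 18.3 ± 14.0 and Dgat2 at 17.1 ± 4.64. The order of these 3 was not fixed, since Scd1 was above Acacb in 10 of 16 libraries and Acacb above Dgat2 in 5 of 16. Srebf1 followed at 7.53 ± 1.75 RPKM, below Dgat2 in all 16 libraries, and Dgat1 at 4.79 ± 0.847, below Srebf1 in 15. Acly at 2.79 ± 0.766 RPKM and Scd2 at 2.66 ± 1.11 could not be ranked, with Acly the higher in 10 of 16. Fasn at 0.782 ± 0.759 RPKM was below Scd2, and Acaca at 0.304 ± 0.199 below Fasn, in 16 of 16 libraries. Elovl6 was last at 0.0837 ± 0.0356 RPKM, on 5 to 33 counts a library.

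Within each pair of related enzymes the same gene led in every mouse. The muscle carboxylase gene Acacb exceeded Acaca by 30.6-fold to 80.9-fold (median 57.8) in RPKM. Scd1 exceeded Scd2 by 2.79-fold to 32.9-fold (median 7.99), the widest of the 3 ranges relative to its median, with the lowest ratio in Npr1+/- replicate 3 and the highest in Npr1+/+ replicate 4. Dgat2 exceeded Dgat1 by 1.95-fold to 6.32-fold (median 3.60). Scd1 and Scd2 are neighbouring paralogs on chromosome 19 (44394455 to 44407879 and 44293674 to 44306864), and reads from stretches they share could have been placed on either.

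**Figure D1:**
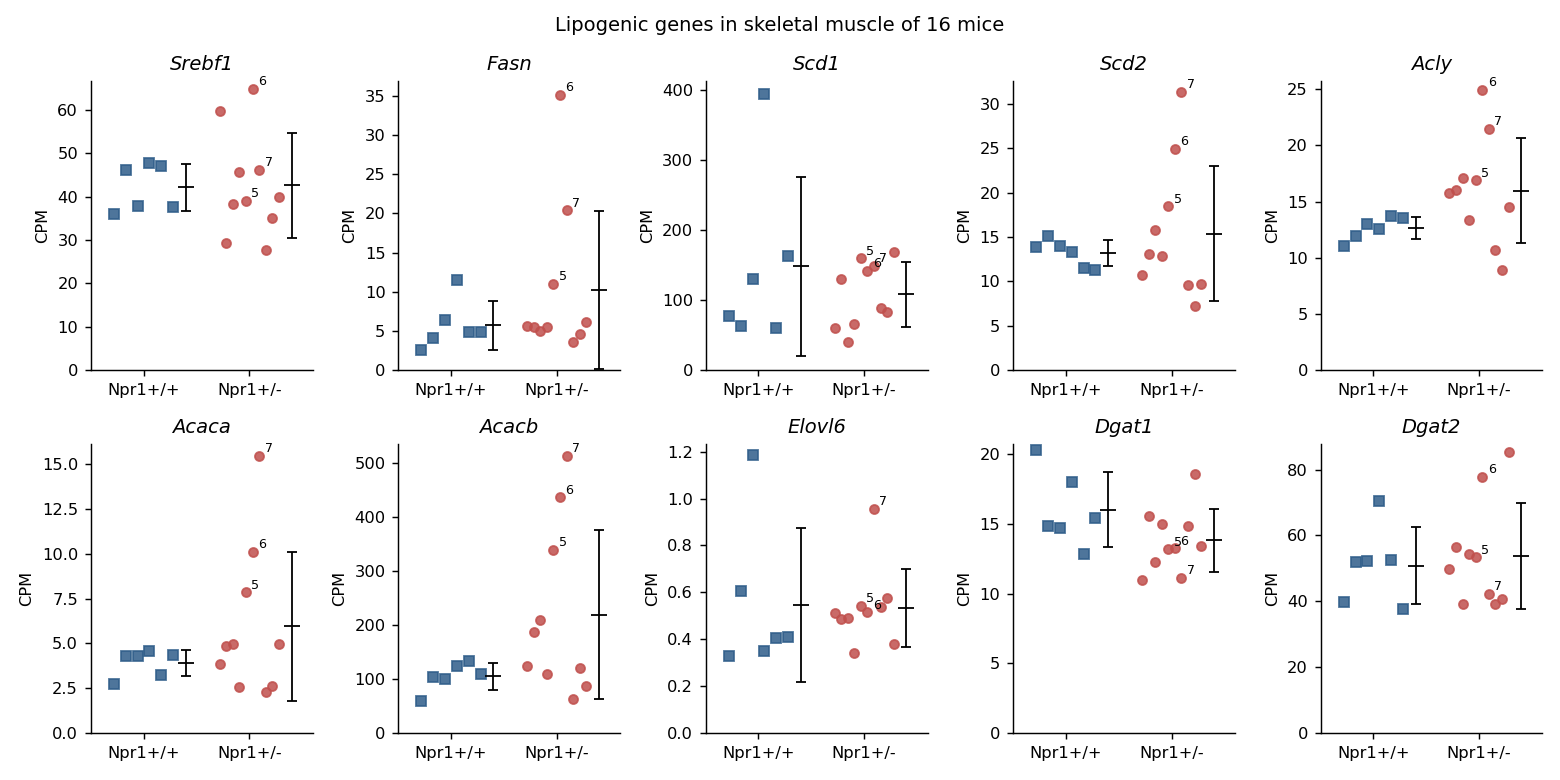
TMM-normalised counts (CPM, vertical axis from 0) of the 10 genes in the 16 libraries, as squares for Npr1+/+ (n = 6) and circles for Npr1+/- (n = 10), with mean ± SD in black beside each group. The digits mark Npr1+/- replicates 5, 6 and 7, which are the 3 highest libraries of Acacb, Acaca and Scd2, while the groups overlap for all 10 genes.

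The first comparison asks whether lipogenic mRNAs differed with the Npr1 label. None of the 10 passed the test: 0 had an adjusted p under 0.05 in edgeR's quasi-likelihood fit with cage and body weight (Benjamini-Hochberg over all genes tested), against 0% of the 14331 genes, and 0 had an unadjusted p under 0.05, against 1.05% of all genes. DESeq2 and limma-voom also called 0 of the 10. The fitted log2 fold changes (Npr1+/- over Npr1+/+) ran from -0.52 to 0.34 with a median of 0.07, beside -0.01 over all genes tested, and the 2 groups overlapped for every gene.

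Srebf1, whose transcripts for SREBP-1a and SREBP-1c share 1 count, lies on chromosome 11 (60199089 to 60222581 of GRCm38, minus strand). Its lowest, median and highest values were 27.7, 39.5 and 64.8 CPM under the Npr1+/- label and 36.1, 42.1 and 47.9 CPM under the Npr1+/+ label. The Npr1+/- libraries enclosed the whole range of the others, and the means were nearly equal at 42.6 ± 12.0 (SD, n = 10) and 42.1 ± 5.44 CPM (SD, n = 6). The fitted log2 fold change was -0.11 (SE 0.21, adjusted p = 1.0 in edgeR). Its sign was not fixed, at 0.0159 with the label alone and -0.00304 without body weight. It was also positive without cage, and with a block of equal replicate numbers instead of cage.

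Acly, whose enzyme is a source of cytosolic acetyl-CoA, lies on chromosome 11 (100476353 to 100528000). It ran from 8.94 through a median of 15.9 to 24.9 CPM under the Npr1+/- label and from 11.1 through 12.8 to 13.7 CPM under the Npr1+/+ label. The Npr1+/+ values sat close together inside the wider Npr1+/- range, in which replicates 6 and 7 were highest, and the log2 fold change was 0.20 (SE 0.21). It was 0.34 with the label alone and 0.38 without body weight. With the length slope added it was 0.12, and without the 3 mice with high length slopes 0.0758. It was 0.45 with a block of equal replicate numbers (the replicate block) instead of cage. Npr1+/- replicates 7 to 10 have no Npr1+/+ mouse of the same number, so a fit with this block rests on 6 pairs of mice.

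Acacb, which encodes ACC2, had the largest difference of means in CPM between the labels (chromosome 5, 114146535 to 114250761). Its lowest, median and highest values were 63.4, 155.9 and 512 CPM under the Npr1+/- label and 59.1, 106 and 132 CPM under the Npr1+/+ label. Replicates 5, 6 and 7 labelled Npr1+/- held 339, 435 and 512 CPM, and the next highest library held 209 CPM. The means were 219 ± 157 CPM (SD, n = 10) and 105 ± 25.4 CPM (SD, n = 6), yet the log2 fold change with cage and body weight in the fit was 0.34 (SE 0.36, adjusted p = 1.0 in edgeR). Without these 3 mice it was -0.09. With fewer terms it was larger, at 1.06 with the label alone, 0.98 without body weight and 0.55 without cage, and 0.93 with the replicate block in place of cage, none of which passed (smallest adjusted p = 0.520, edgeR).

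Acaca, which encodes ACC1 (chromosome 11, 84129672 to 84401651), showed the same 3 mice at the top. It ran from 2.26 through 4.90 to 15.5 CPM under the Npr1+/- label and from 2.74 through 4.28 to 4.59 CPM under the Npr1+/+ label. The log2 fold change was 0.13 (SE 0.38), and it was -0.13 without the 3 mice, 0.62 with the label alone, 0.67 without body weight, 0.21 without cage and 0.36 with the replicate block.

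Fasn, the gene of fatty acid synthase (chromosome 11, 120805846 to 120824547), ran from 3.57 through 5.58 to 35.1 CPM under the Npr1+/- label and from 2.55 through 4.88 to 11.6 CPM under the Npr1+/+ label. The other 12 mice held 2.55 to 6.43 CPM. Above them stood Npr1+/- replicates 6 (35.1), 7 (20.4) and 5 (11.03) and Npr1+/+ replicate 4 (11.6). The log2 fold change was 0.28 (SE 0.47, adjusted p = 1.0 in edgeR), and it was -0.55 without the 3 Npr1+/- mice, 0.86 with the label alone, 0.79 without body weight, 0.67 without cage and 0.87 with the replicate block.

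Scd1, the main stearoyl-CoA desaturase gene here, had its higher mean under the Npr1+/+ label, through 1 mouse. It ran from 39.5 through 109 to 169 CPM under the Npr1+/- label and from 60.5 through 104 to 394 CPM under the Npr1+/+ label. The 394 CPM belonged to Npr1+/+ replicate 4, and the next library had 169 CPM. The log2 fold change was -0.52 (SE 0.45, adjusted p = 1.0 in edgeR) and became 0.54 when replicate 4 was left out and -1.09 without the 3 mice with high length slopes. Scd2 ran from 7.21 through 12.9 to 31.4 CPM under the Npr1+/- label and from 11.3 through 13.6 to 15.1 CPM under the Npr1+/+ label, with a log2 fold change of -0.02 (SE 0.27).

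Elovl6, the elongase that acts on palmitate (chromosome 3, 129532355 to 129638495), ran from 0.340 through 0.514 to 0.956 CPM under the Npr1+/- label and from 0.327 through 0.407 to 1.19 CPM under the Npr1+/+ label. Npr1+/+ replicate 3 and Npr1+/- replicate 7 were the high libraries, on 33 and 21 counts. The log2 fold change was 0.07 (SE 0.41).

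The genes of the last step of triglyceride synthesis stayed within narrower ranges. Dgat1 (chromosome 15, 76502015 to 76511951) ran from 10.97 through 13.3 to 18.6 CPM under the Npr1+/- label and from 12.9 through 15.1 to 20.3 CPM under the Npr1+/+ label, with a log2 fold change of -0.08 (SE 0.15). Dgat2 (chromosome 7, 99153658 to 99182719) ran from 39.1 through 51.5 to 85.5 CPM and from 37.5 through 52.2 to 70.6 CPM, with a log2 fold change of 0.07 (SE 0.23).

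**Figure D2:**
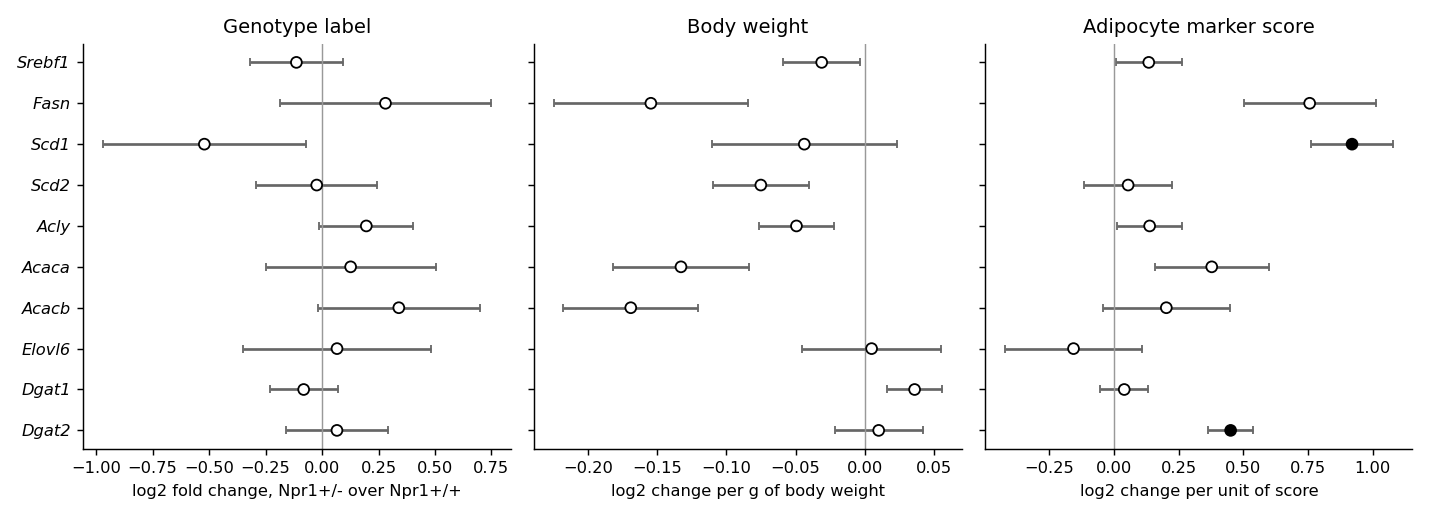
Fitted effects of the 10 genes on the log2 scale with their SE (bars) for the Npr1 label, for 1 g of body weight and for 1 unit of the adipocyte marker score, from edgeR over 16 mice. Filled points mark an adjusted p under 0.05 over all genes tested, which only Scd1 and Dgat2 reached, both on the adipocyte marker score.

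Within cages the sign of the difference between labels was rarely uniform. Acaca was higher on average under the Npr1+/- label in 4 of 4 cages, by 0.05 to 1.16 on the log2 scale. Acacb, Fasn, Acly, Scd2, Elovl6 and Dgat2 were higher in 3 of 4 cages, Srebf1 and Scd1 in 2 and Dgat1 in 1. Each cage held only 1 to 4 mice of a label, so these are values with no test. In the 4-cage comparison itself, 0 of the 10 genes passed an adjusted p under 0.05 in edgeR, against 0.0279% of all genes tested, and Acacb (p = 0.0411) and Fasn (p = 0.0492) had an unadjusted p under 0.05, against 7.36% of all genes. DESeq2 and limma-voom also called 0 of the 10 among cages, where they called 86 (0.6%) and 1 (0.00698%) of all genes. With Npr1+/- replicate 3 left out, Acacb, Acaca and Fasn passed among cages, where 6.08% of all genes did.

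Spread between mice divided the 10 genes more than the label did. The SD of log2 CPM over 16 mice was 0.95 for Fasn, 0.91 for Acacb, 0.82 for Scd1 and 0.73 for Acaca, each at percentile 92.3 or higher among all genes tested. It was 0.25 for Dgat1, 0.32 for Srebf1, 0.36 for Dgat2 and 0.37 for Acly, below the median gene at 0.38.

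The high values of Acacb, Acaca, Fasn, Acly and Scd2 moved with the length slope of the library, a measure made from all genes tested, these included. Pearson's r with the length slope over 16 mice was 0.91 for Scd2, 0.86 for Acacb, 0.84 for Acaca, 0.81 for Acly and 0.73 for Fasn, and these 5 of the 10 passed a permutation test at an adjusted p under 0.05 over all genes tested (largest adjusted p = 0.0059). They did so on a broad background, since 54.4% of all genes passed. Spearman's rho was 0.81, 0.67, 0.64, 0.71 and 0.50 in the same order, and the last of these, for Fasn, did not pass (permutation, adjusted p = 0.0925), where 47.8% of all genes passed by rho. Without the 2 mice farthest from the median slope, Npr1+/- replicates 7 and 6, r was 0.78, 0.69, 0.61, 0.61 and 0.35, and with replicate 5 left out as well only Scd2 passed, 1 of the 10 beside 20.2% of all genes. With cage means removed, r was 0.89, 0.87, 0.82, 0.82 and 0.73. Srebf1 (r = 0.24), Scd1 (r = 0.17) and Dgat2 (r = 0.01) did not pass. The deposited lengths of these genes run from 3056 bases (Dgat1) to 17074 bases (Acaca), and r did not follow their order. It was -0.51 for Dgat1 but 0.01 for Dgat2 (3083 bases), 0.91 for Scd2 (5464 bases), 0.24 for Srebf1 (5634 bases) and 0.51 for Elovl6 (6431 bases). The same 3 mice also had the highest sums of 4 of 4 endothelial markers (Pecam1, Cdh5, Tek and Kdr), at 274, 379 and 428 CPM in Npr1+/- replicates 5, 6 and 7. The other 13 libraries held 114 to 226 CPM, and no marker was at 0 in any library. The part of endothelial transcripts in these values was not tested.

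**Figure D3:**
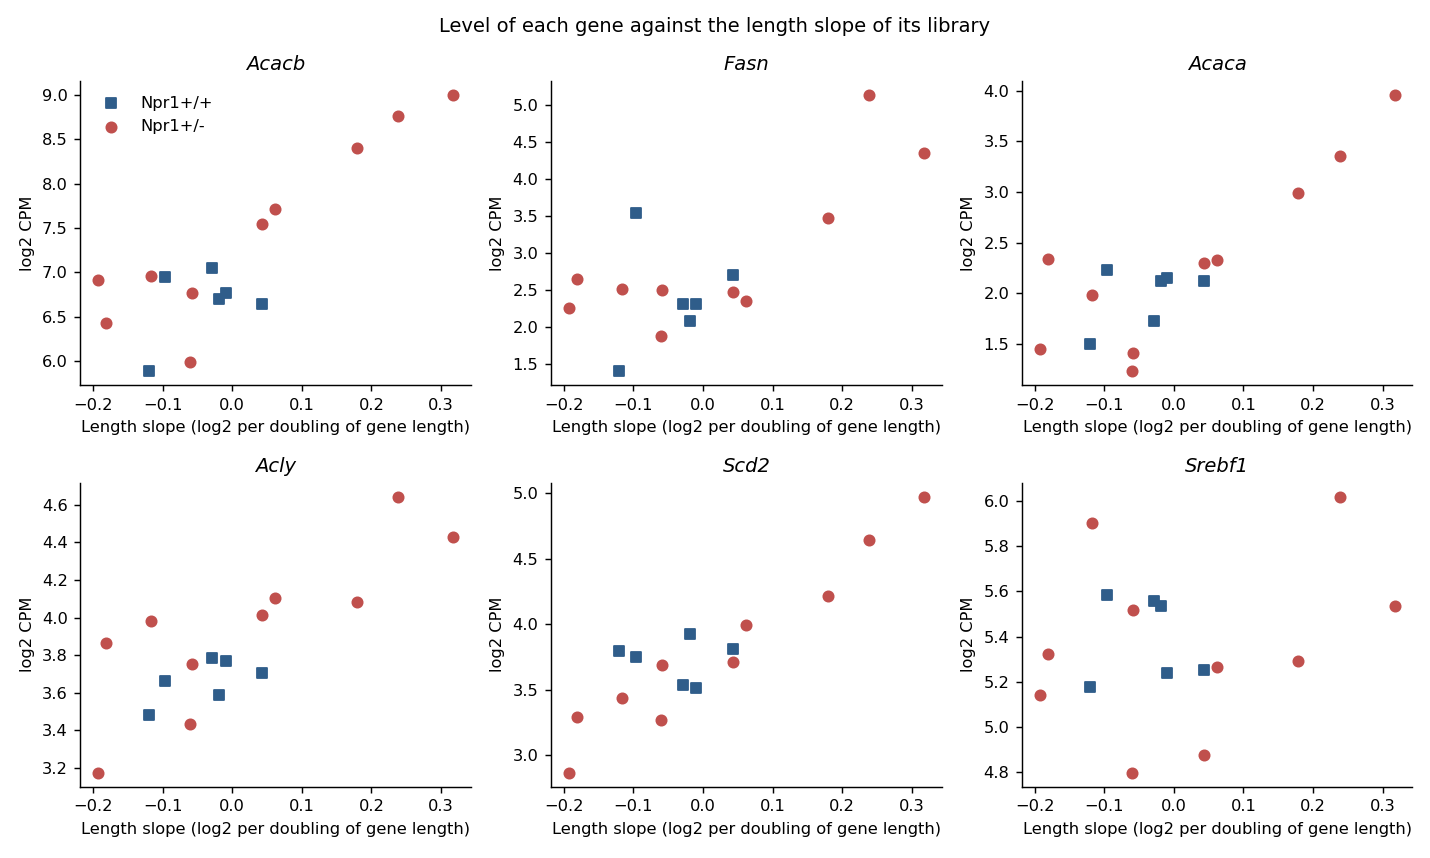
log2 CPM of 6 genes (vertical axes) against the length slope of the library (horizontal axes, log2 change per doubling of gene length), as squares for Npr1+/+ and circles for Npr1+/-. The 3 circles at the right, at slopes of 0.18, 0.24 and 0.32, are the highest of all libraries for Acacb, Acaca and Scd2, whereas Srebf1 (r = 0.24) shows no such order.

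With cage and label in the fit, Acacb, Acaca, Fasn and Scd2 had lower values in heavier mice, by slopes that did not pass. Per gram, the fitted log2 change was -0.17 for Acacb (SE 0.05, p = 0.0032, adjusted p = 0.245 in edgeR), -0.13 for Acaca (SE 0.05, p = 0.0159), -0.15 for Fasn (SE 0.07, p = 0.0422) and -0.08 for Scd2 (SE 0.03, p = 0.0447). These 4 of 10 had an unadjusted p under 0.05, as did 17.1% of all genes, and 0 of the 10 passed after adjustment, against 0% of all genes tested. DESeq2 and limma-voom also called 0 of the 10. The heaviest of the 3 mice with high length slopes, Npr1+/- replicate 6, weighed 46.2 g, and the other 2, replicates 5 and 7, weighed 39.4 and 36.5 g, the lowest of the 16. With the length slope in the fit, the changes per gram were -0.07 for Acacb, -0.05 for Acaca, -0.04 for Fasn and -0.01 for Scd2. With the 3 mice left out they were -0.09, -0.04, -0.04 and -0.01. The replicate block in place of cage turned the change positive for Fasn and Scd2 and made it smaller in size for Acacb and Acaca. When Npr1+/- replicate 3 was left out, all 4 passed (adjusted p = 0.0043 for Acacb in edgeR), beside 22.1% of all genes. That was the only 1 of 29 alternatives in which Acacb passed, and its adjusted p ran up to 0.9997 over them (edgeR, DESeq2 and limma-voom). The other 6 genes ran from -0.05 to 0.04 per gram, with Srebf1 at -0.03 (SE 0.03).

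Scd1 and Dgat2 rose with the adipocyte marker score, the mean log2 CPM of 8 white adipocyte genes (Adipoq, Plin1, Cidec, Lep, Retn, Cfd, Adig and Trarg1), none of which is among the 10. The score ran from 1.88 in Npr1+/- replicate 3 to 5.28 in Npr1+/- replicate 10, and the summed markers from 43.9 to 460.0 CPM under the Npr1+/- label and from 111 to 374 CPM under the Npr1+/+ label. Adipoq, which encodes adiponectin, ran from 8.33 to 147 CPM. Per unit of score, Scd1 rose by 0.92 on the log2 scale (SE 0.16, adjusted p = 0.0200 in edgeR) and Dgat2 by 0.45 (SE 0.09, adjusted p = 0.0367). These were 2 of the 10, against 0.272% of all genes tested (39 genes, all of them higher). Among the 39 are Retn, Plin1, Cidec, Adipoq, Cfd, Trarg1 and Lep, which are themselves part of the score. The other score gene, Adig, did not pass (0.17 per unit, p = 0.435 in edgeR). The mouse with the most Scd1, Npr1+/+ replicate 4 at 394 CPM, had the second highest score, 4.99, and the mouse with the least Scd1, Npr1+/- replicate 3 at 39.5 CPM, had the lowest. The mouse with the most Dgat2, Npr1+/- replicate 10 at 85.5 CPM, had the highest score. Fasn changed by 0.76 per unit (SE 0.26, adjusted p = 0.965), which became 0.79 (adjusted p = 0.0038) with the length slope in the fit, the only 1 of 31 alternatives in which Fasn passed. Acacb at 0.20, Srebf1 at 0.13 and Scd2 at 0.05 did not pass. Both calls were lost with 1 mouse fewer: 0 of the 10 genes passed without Npr1+/+ replicate 4, or without Npr1+/- replicate 1, 3, 6 or 10. The slopes ran over 0.83 to 1.02 for Scd1 and 0.42 to 0.49 for Dgat2 with each mouse left out in turn. Over 31 alternatives Scd1 passed in 21 (adjusted p up to 0.394, all tools) and Dgat2 in 13 (up to 0.9999). In bulk muscle, more adipocytes and more mRNA per cell cannot be told apart.

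**Figure D4:**
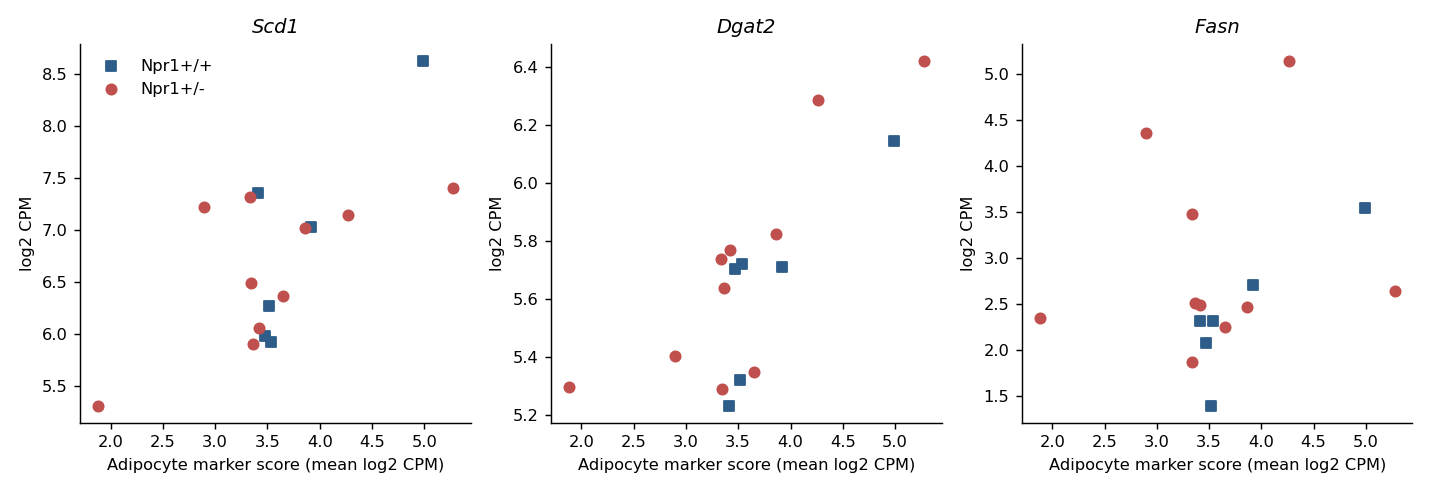
log2 CPM of Scd1, Dgat2 and Fasn (vertical axes) against the adipocyte marker score (horizontal axes, mean log2 CPM of 8 marker genes) in 16 libraries, as squares for Npr1+/+ and circles for Npr1+/-. The 2 libraries at the right, at 4.99 and 5.28, hold the highest Scd1 values (394 and 169 CPM).

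The genes were next compared with each other over the 16 mice, by Pearson's r of log2 CPM with Srebf1, Fasn, Acacb and Scd1 in turn, each with 100000 permutations and adjustment over all genes. With Srebf1, 0 of the 9 other genes passed, as did 0% of all genes tested by permutation of r. Fasn had the highest r with Srebf1 (r = 0.59, p = 0.0179, adjusted p = 0.406; rho = 0.56), ahead of Acly (r = 0.52), Dgat2 (0.45), Scd2 (0.42), Acacb (0.41) and Acaca (0.41). By r, Fasn had rank 343 among all genes. For Scd1 r was 0.01, and for Dgat1 it was -0.44. Without the 2 mice farthest from the median of Srebf1, r with Fasn was 0.45, with cage means removed it was 0.60, and with the length slope removed it was 0.61.

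Fasn and Acacb passed with each other, and each also with Acaca, Acly and Scd2, in numbers close to the share of all genes that passed. With Fasn, r was 0.85 for Acaca, 0.84 for Acacb, 0.79 for Acly and 0.73 for Scd2 (permutation, adjusted p = 0.0042 to 0.0131), 4 of the 9 others against 36.0% of all genes. With Acacb, r was 0.88 for Acaca, 0.84 for Acly, 0.84 for Fasn and 0.78 for Scd2 (permutation, largest adjusted p = 0.0026), 4 of the 9 others against 45.3% of all genes. Spearman's rho with Acacb was 0.66, 0.80, 0.60 and 0.54 for these 4, of which Acaca and Acly passed (permutation, adjusted p = 0.0293 and 0.0044), against 28.4% of all genes by rho. Spearman's rho with Fasn was 0.72 for Acaca, the only one of the 9 to pass (permutation, adjusted p = 0.0406), against 8.86% of all genes by rho. Most of these calls were lost without the mice with high length slopes. Without Npr1+/- replicates 6 and 7, the 2 farthest mice, r of Acaca with Acacb was 0.73 and passed, 1 of the 9 beside 10.2% of all genes, and r with Fasn was 0.68 for Acaca, 0.64 for Acacb, 0.46 for Acly and 0.31 for Scd2, none of which passed. With the length slope removed from both genes, r of Acacb was 0.57 with Acaca, 0.60 with Fasn, 0.48 with Acly and -0.03 with Scd2. No cage held 6 mice, so no r is given within a cage. Removing the cage means left r of Acacb at 0.88 with Acaca and 0.82 with Fasn.

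**Figure D5:**
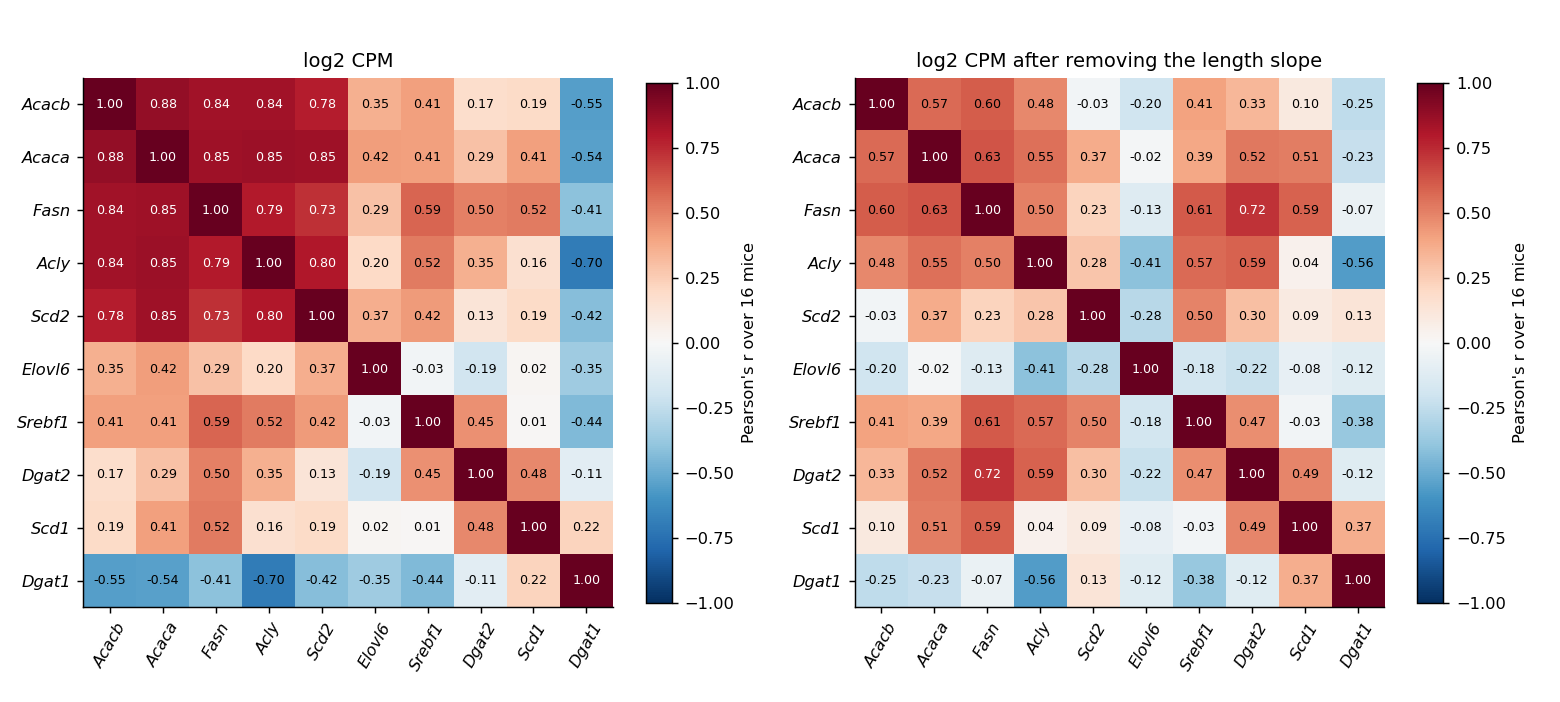
Pearson's r between the 10 genes over 16 mice on log2 CPM (left) and after the length slope of the library was removed (right). The values among Acacb, Acaca, Fasn, Acly and Scd2 at the upper left run from 0.73 to 0.88 on the left and from -0.03 to 0.63 on the right.

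Scd1 had no partner that passed, 0 of the 9 against 0% of all genes tested, with r highest for Fasn (r = 0.52, p = 0.0409; rho = 0.54) and Dgat2 (0.48). The 5 other genes most like Scd1 over the 16 mice were Nnat (neuronatin; r = 0.85), Lgals12 (galectin-12; r = 0.85), Tmem45b (r = 0.85), Rtn4rl1 (r = 0.84) and Npr3, the natriuretic peptide clearance receptor (r = 0.84). The 5 most like Fasn were Nid2, a basement membrane protein (r = 0.92), Atp2a2, the calcium pump of slow fibers (r = 0.92), Fbxo21 (r = 0.92), Sulf2 (r = 0.92) and Aoc3, an amine oxidase (r = 0.92). Without the 3 mice with high length slopes, these r were 0.72, 0.65, 0.72, 0.84 and 0.84 in the same order. In that setting 0% of all genes passed with Fasn. The 5 most like Srebf1 were Smarcb1, a subunit of the SWI/SNF chromatin remodeler (r = 0.84), Arap1 (r = 0.81), Tcf25 (r = 0.78), Ficd (r = 0.78) and Poldip3 (r = 0.78). The likeness was measured among genes with a mean of at least 1 CPM.

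Genes around the pathway gave the same picture between the labels. In edgeR, 0 of 16 genes of SREBP control, 0 of 19 tested of sterol synthesis, 0 of 8 of acetyl-CoA, NADPH and malonyl-CoA supply, 0 of 11 of elongation and desaturation, 0 of 10 of triglyceride synthesis and 0 of 13 of lipid droplets and lipolysis passed between labels, on body weight or among cages. An unadjusted p under 0.05 was reached by 0 of them between labels, by 3, 5, 1, 0, 1 and 4 on body weight and by 0, 1, 1, 0, 0 and 1 among cages, in the order of the lists, beside 1.05%, 17.1% and 7.36% of all genes. The median log2 fold changes were 0.02, -0.03, -0.005, -0.07, -0.04 and -0.10 in that order, beside -0.01 over all genes. The gene with the smallest p of each list was Mlxipl, which encodes ChREBP (log2 fold change 0.21, p = 0.435 in edgeR), Fdps (-0.25, p = 0.233), Slc25a1 (-0.33, p = 0.330), Hacd2 (-0.49, p = 0.0863), Agpat4 (0.23, p = 0.394) and G0s2, an inhibitor of adipose triglyceride lipase (-0.41, p = 0.139). On body weight the smallest p of any list belonged to G0s2 (0.14 per gram, p = 0.0016, adjusted p = 0.245 in edgeR), followed by Lpin1, a phosphatidate phosphatase (-0.18 per gram, p = 0.0020). On the adipocyte marker score, Slc25a1, the mitochondrial citrate carrier, rose by 0.65 per unit (SE 0.12, adjusted p = 0.0247 in edgeR). It was the only gene of these lists to pass, beside 0.272% of all genes tested. Its call was not followed over the alternatives. Lipe, which encodes hormone-sensitive lipase, was at 0.59 per unit and Fads3 at 0.41, each with an adjusted p = 0.0776 in edgeR.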

How the data were processed

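Poly(A) mRNA of skeletal muscle from 16 mice was sequenced in paired-end reads. Raw gene counts were deposited by the authors, made with STAR 2.7.2b on GRCm38 and the GENCODE M24 model, counting fragments with both ends aligned. The submitters' processing notes give featureCounts 1.6.4. The methods name a stranded library protocol, the labels a Tecan kit. Gene lengths are those of the same table, and symbols matched 55144 of 55471 identifiers. Groups, cages and weights came from the labels.

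Counts were filtered with filterByExpr, scaled by TMM and tested with edgeR 4.0.16 (glmQLFit, robust = TRUE, legacy = TRUE, R 4.3.3) on cage, body weight and label, as in the methods. The adipocyte marker score was added to that fit for its own test. P-values were adjusted by Benjamini-Hochberg over all genes, at a threshold of 0.05. log2 CPM used a prior count of 2. Correlations used 100000 two-sided permutations (scipy 1.17.1, numpy 2.4.6). DESeq2 1.42.0 and limma 3.58.1 were alternatives, beside other covariates, scalings and filters and each mouse left out. The length and GC slopes, and leaving out the 3 highest length slopes, were chosen after seeing the data. Steps were tested on simulated data.

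The 10 genes and all lists were chosen with earlier results of these data known. Genes named are these 10, the 5 genes most correlated with Srebf1, Fasn and Scd1, and per list the genes called or the gene with the smallest p. Npr1 and the adipocyte and endothelial markers are named besides. Each mouse is 1 replicate, no 2 libraries held identical counts, and counting error is the only error that depth covers.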

Additional observations from a re-analysis of the deposited data

Results flagged for a closer look

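Of 20 groups examined (10 genes in each label), 2 held a library far from the rest of its group by Dixon's test, and chance flags about 1 in 20 groups. Acacb was lowest in Npr1+/+ replicate 1, at a log2 CPM of 5.89 (59.1 CPM), and the next library of that label had 100.1 CPM. Elovl6 was highest among the Npr1+/- libraries in replicate 7, at a log2 CPM of 0.0584 (0.956 CPM, 21 counts), and the next had 0.577 CPM.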

How the results depend on the processing

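No alternative called any of the 10 genes between the labels. Genes called between the labels numbered 0, but 2 with the replicate block in place of cage, 6 with DESeq2, 8 with no filter on low counts, 2 with the length slope added, 1 with the 3 highest length slopes left out, and 0 to 3 with 1 mouse left out. Log2 fold changes crossed zero for Srebf1 (0.0159 with the label alone, 0.00485 with no cage term, 0.23 with the replicate block), Scd2 (0.22 with the label alone, 0.28 with no weight term, 0.27 with the replicate block), Elovl6 (-0.0430 with the label alone), Acaca (-0.0237 with the length slope added) and, with the 3 highest length slopes left out, Fasn (-0.55), Acaca (-0.13), Acacb (-0.0906) and Dgat2 (-0.20). Leaving out 1 mouse gave -0.22 to 0.64 for Fasn, -0.87 to 0.54 for Scd1, -0.18 to 0.11 for Scd2, -0.0598 to 0.27 for Acaca, -0.23 to 0.26 for Elovl6, -0.13 to 0.0926 for Dgat1 and -0.0698 to 0.49 for Dgat2. It gave 0.0596 to 0.30 for Acly, 0.0710 to 0.86 for Acacb and -0.26 to -0.0355 for Srebf1, which kept their sign. Dgat1, at -0.0814, was at -0.21 with the label alone, -0.22 without body weight, -0.20 without cage and -0.30 with the replicate block. The cause of these changes was not tested.

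With 1 mouse left out, 0 to 4 of the 10 genes were called on body weight, 0 to 3 among cages and 0 to 2 on the adipocyte marker score. The calls on weight and among cages came without Npr1+/- replicate 3, where 22.1% and 6.08% of all genes were called, and calls on the score numbered 4 to 44 of all genes. The 2 calls on the score became 1 with the label and score only (0.356% of all genes called), 0 with no weight term (0.202%), 0 with the replicate block (0.0698%), 0 with library size only (0.167%), 1 with no filter (0.119%), 1 with the GC slope added (0.0837%) and 0 with the 3 highest length slopes left out (0.114%). They became 3 with the length slope added (0.495%). The change per gram was -0.0235 for Acacb, -0.0244 for Acaca, 0.0383 for Fasn and 0.00842 for Scd2 with the replicate block, and -0.0976, -0.0798, -0.0544 and -0.0514 in that order with no cage term. Of the 6 other genes on weight and the 7 others on the score, all had a sign change in some setting (14 of 172 and 23 of 215 values).

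Partners of Fasn numbered 4, and 0 without the 2 farthest mice, with the 3 highest length slopes left out or with the length slope removed, beside 0%, 0% and 0.209% of all genes. They numbered 5 with cage means removed (Srebf1 added, 31.4% of all genes) and 5 with label means removed (Scd1 added, 27.6%). Partners of Acacb numbered 4, then 1, 0 and 0 in the first 3 of these settings, beside 10.2%, 3.9% and 11.6% of all genes, and 5 with cage means removed (Dgat1 added, 40.6%). With the length slope removed r of Scd2 with Acacb reached -0.0284. Of the 5 genes that passed with the length slope, 2 passed without the 2 farthest mice, beside 32.7% of all genes, and 1 with the 3 highest length slopes left out, beside 20.2%. Mice that share a number across labels are separate animals, and their deviations correlated at 0.03 to 0.17 over 6 pairs, and none correlated best with its own number.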
